A study of Arabidopsis thaliana with 9 samples.

Results

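DME encodes DEMETER, a DNA glycosylase that excises 5-methylcytosine, and CHR23 encodes an ATPase of the SWI/SNF type that moves or remodels nucleosomes. These are 2 of the 13286 genes the array annotation names, and all probe sets annotated to them were taken, 4 of the 22810 on the array, 3 for DME (250834_at, 250835_at and 250836_at) and 1 for CHR23 (246095_at). Both genes were chosen by their intensities in the agl15 agl18 double mutant relative to wild type, where DME 250835_at and CHR23 246095_at were among the lowest log2 differences, so the values of that contrast are given as a description and without a test. The material was 10-day Arabidopsis thaliana culture of the Columbia ecotype, with 3 arrays per genotype. The 35S:AGL15 line expresses the MADS-domain transcription factor gene AGL15 from the constitutive 35S promoter, the double mutant carries the loss-of-function alleles agl15-4 and agl18-1, and wild type has its own normal AGL15 level. The number of independent 35S:AGL15 lines is not given in the labels. All 3 genotypes germinated in shaken liquid medium with 4.5 µM of the synthetic auxin 2,4-D and were harvested on day 10. The labels also give 2% sucrose, 10 mM MES, and 23 h of light with 1 h of dark for every array. By the description of the series, the shoot apex forms more somatic embryos in 35S:AGL15 and fewer in the double mutant than in wild type. The labels call the material shoot apical meristem somatic embryo culture and do not say how much of each seedling was collected.

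In plants, cytosine methylation is removed by base excision, in which a glycosylase of the DEMETER family cuts out the methylated base and further enzymes trim, fill and seal the gap. DME is best known from the central cell of the female gametophyte, where its activity sets up imprinted expression in the endosperm. It also acts in the vegetative cell of pollen, while its relative ROS1 is the main demethylase of vegetative tissue. CHR23, also called MINU2, and its close relative CHR12 (MINU1) are SWI/SNF ATPases that act redundantly in keeping stem cells in the embryo and in the root and shoot meristems.

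By the reference annotation (assembly TAIR10.1), DME is locus AT5G04560 on chromosome 5, from 1309099 to 1318520, and CHR23 is locus AT5G19310 on the same chromosome, from 6498743 to 6503692. The 2 genes lie 5180223 bases apart. The reference gene table lists AT5G04570 and AT5G04580 as further names of DME. It lists 3 transcripts for DME and 2 for CHR23. Which exon or transcript each probe set reads is not given in the sources used here, so the DME probe sets are told apart by their identifiers alone.

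The arrays were scaled to a common trimmed mean, and they differed in other respects, some of which run with genotype. The background level of an array is here the highest of its 27 Bacillus control probe sets. It was 17.0 to 28.1 intensity units in 35S:AGL15, 21.8 to 40.5 in the double mutant and 13.7 to 21.0 in wild type. The geometric mean of the 9 spike-in control probe sets, which report transcripts added at the bench, was 715 to 1273 in 35S:AGL15, 1065 to 1690 in the double mutant and 657 to 875 in wild type. Among the 35S:AGL15 arrays, replicate 3 (1273) lay with the double mutant arrays and replicates 1 (782) and 2 (715) with wild type. The ratio of the actin 3′ to the actin 5′ probe set, a gauge of how far the labelled RNA reaches towards the 5′ end, was 1.34 to 1.48 in 35S:AGL15, 1.40 to 2.31 in the double mutant and 1.33 to 1.49 in wild type, with the highest value on double mutant replicate 1. The same ratio for GAPDH did not follow genotype, at 0.937 to 1.10, 0.993 to 1.03 and 0.985 to 1.04 in that order. For ubiquitin it was 1.07 to 1.17, 1.05 to 1.29 and 1.05 to 1.13, again highest on double mutant replicate 1. A second set of such probe sets gave actin ratios of 8.49 to 11.8, 7.45 to 11.6 and 9.32 to 12.1, which did not follow genotype. For GAPDH that set gave 0.847 to 1.09, 0.811 to 1.33 and 0.826 to 0.985, highest on double mutant replicate 1. For ubiquitin it gave 2.26 to 2.97, 2.12 to 2.75 and 2.28 to 2.51, highest on 35S:AGL15 replicate 3. AGL18 averaged 66.4 ± 21.3 intensity units in 35S:AGL15, 81.5 ± 27.8 in the double mutant and 179 ± 9.55 in wild type (SD, n = 3), and where its probe set lies relative to the agl18-1 lesion is not given in the sources used here. No probe set is annotated to AGL15, which was not analysed here.

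DME was lower in the double mutant than in wild type by all 3 of its probe sets, but to very different degrees. DME 250835_at had intensities of 111, 159 and 43.7 in 35S:AGL15 replicates 1 to 3, 8.06, 33.3 and 18.9 in the double mutant and 225, 258 and 165 in wild type. All 3 genotypes were thus separated on this probe set, with every 35S:AGL15 array below every wild type array and above every double mutant array. Over all probe sets, 14.8% lay entirely lower in 35S:AGL15 than in wild type, and 20.8% entirely lower in the double mutant than in 35S:AGL15. The share with the full order of 3 was not counted. On DME 250835_at only replicate 2 of the double mutant was above the background level, and the other 2 double mutant arrays read as background. The difference of the double mutant from wild type was −3.63 on the log2 scale (SE 0.60), and it was −2.71 when values below background were raised to that level.

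DME 250836_at had 225, 346 and 171 in 35S:AGL15 replicates 1 to 3, 243, 130 and 193 in double mutant cultures and 442, 389 and 322 in wild type. Every array was well above background here, from 5.94 to 24.6 times the background level of its array. The double mutant arrays lay entirely below the wild type arrays and overlapped those of 35S:AGL15. The mean was 189 ± 56.7 in the double mutant and 384 ± 60.0 in wild type (SD, n = 3), 2.09-fold lower in the double mutant (log2 difference −1.06, SE 0.32).

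DME 250834_at had 26.6, 65.5 and 32.004 in 35S:AGL15 replicates 1 to 3, 34.6, 17.6 and 23.0 in double mutant cultures and 72.4, 66.7 and 51.2 in wild type. Double mutant arrays were all below background, at 0.807 to 0.911 times that level, and those of the other 2 genotypes were all above it. At the deposited scaling, the mean was therefore at least 2.23-fold lower in the double mutant than in wild type (log2 difference −1.16 against the background level). This bound does not hold across scalings, as the fitted log2 difference was −0.86 under median centring. The double mutant and 35S:AGL15 arrays overlapped.

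CHR23 246095_at had 48.8, 124 and 34.7 in 35S:AGL15 replicates 1 to 3, 1.90, 18.3 and 6.09 in double mutant cultures and 118, 93.7 and 82.4 in wild type. The double mutant arrays were all below background, at 0.0468 to 0.837 times that level, whereas all 35S:AGL15 and wild type arrays were above it. Against the background level and at the deposited scaling, mean CHR23 was thus at least 3.45-fold lower in the double mutant than in wild type. In the double mutant it was also at least 2.11-fold lower than in 35S:AGL15. Every double mutant array read below every 35S:AGL15 array, as for 20.8% of all probe sets. That order rests on values below background, because 35S:AGL15 replicate 3 (34.7) lay under the background level of double mutant replicate 1 (40.5). As a position on the array, which no scaling by a single factor changes, CHR23 exceeded 3.38% to 19.0% of the 22746 probe sets in the double mutant and 36.7% to 41.2% in wild type. DME 250835_at exceeded 12.7% to 27.3% in the double mutant and 47.5% to 55.6% in wild type, whereas DME 250836_at exceeded 48.4% to 61.0% in the double mutant and 61.5% to 67.5% in wild type. In RNA from tissue of many cells, fewer cells of a type and less transcript per cell cannot be told apart.

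**Figure D1:**
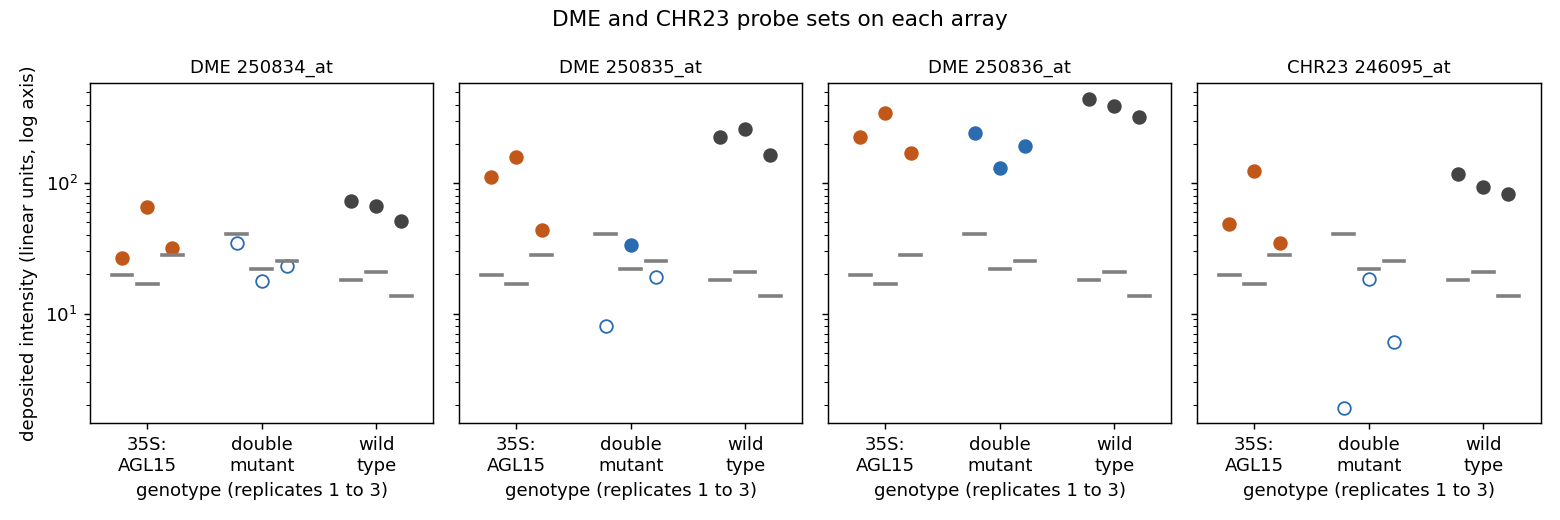
Deposited intensity (log axis) of the 3 DME probe sets and of CHR23 on each array, with 35S:AGL15, the double mutant and wild type from left to right and replicates 1 to 3 side by side. Filled points lie above and open points below the background level of their array (grey bars); the 3 double mutant points are open for CHR23 and for DME 250834_at, and all 9 points are filled for DME 250836_at.

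All 4 probe sets separated the double mutant from wild type without overlap. Over all probe sets, 30.3% lay entirely lower in the double mutant, and limma called 15.0% lower and 3.90% higher at an adjusted p under 0.05. Nothing is read from that share for the members, which this contrast had chosen. Ordered by mean intensity, wild type was highest, 35S:AGL15 intermediate and the double mutant lowest on each of the 4. Neighbours in that order overlapped for 35S:AGL15 and wild type on DME 250834_at, DME 250836_at and CHR23, and for the double mutant and 35S:AGL15 on DME 250834_at and DME 250836_at.

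The contrast between 35S:AGL15 and wild type did not choose the members, although it shares the wild type arrays with the one that did. None of the 4 probe sets passed the test there, against 2.31% of all probe sets called lower and 1.38% called higher. By limma with Benjamini-Hochberg adjustment over 22746 probe sets, DME 250835_at had a log2 difference of −1.21 (95% confidence interval −2.60 to 0.18, adjusted p = 0.344). It was the only probe set of the 4 with every 35S:AGL15 array below every wild type array, a pattern that 14.8% of all probe sets shared. DME 250834_at was at −0.72 (−1.60 to 0.17, adjusted p = 0.378) and DME 250836_at at −0.69 (−1.43 to 0.06, adjusted p = 0.320). CHR23 was at −0.71 (−2.52 to 1.11, adjusted p = 0.667). The unadjusted p-values of limma were 0.0669 to 0.396. The intervals of the DME probe sets reach from a small rise to a fall of more than 1 log2 unit, and that of CHR23 also holds a rise of that size, so neither a direction nor equal levels were shown.

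The 35S:AGL15 arrays were far apart on the members. Set against the mean of wild type on the log2 scale, replicate 2 deviated by 0.06, −0.42 and −0.14 on DME 250834_at, 250835_at and 250836_at and by 0.36 on CHR23. Replicate 3 deviated by −0.97, −2.28 and −1.16 on the DME probe sets and by −1.48 on CHR23, and replicate 1 by −1.24, −0.94 and −0.76 and by −0.99. Replicate 2 was the nearest of the 3 to wild type on all 4 probe sets, although it lay below every wild type array on DME 250835_at and above every wild type array on CHR23. Without replicate 3 the log2 difference of DME 250835_at was −0.68 (adjusted p = 0.681) and that of CHR23 −0.32 (adjusted p = 0.926). Without replicate 2 they were −1.61 (adjusted p = 0.148) and −1.24 (adjusted p = 0.362), by the same limma fit.

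The 3 DME probe sets did not give the same difference. Levels of different probe sets are not comparable, because each binds with its own strength, so only their differences between genotypes were set side by side. In the double mutant against wild type, the fitted log2 differences were −1.38 for DME 250834_at, −3.63 for DME 250835_at and −1.06 for DME 250836_at, but those of the first pair take in values below background and have no fixed size. With values below background raised to that level they were −1.16, −2.71 and −1.06, and the widest gap, between DME 250835_at and DME 250836_at, was 1.65. As DME 250835_at was among the values that chose the members in this contrast, its distance from the other DME probe sets is a description. Set against the wild type mean of each probe set, DME 250835_at was the lowest of the 3 on each double mutant array. DME 250835_at deviated from its wild type mean by −4.72, −2.67 and −3.49 on double mutant replicates 1 to 3, DME 250834_at by −0.86, −1.83 and −1.45, and DME 250836_at by −0.65, −1.56 and −0.98. In 35S:AGL15 against wild type the 3 probe sets differed from each other by at most 0.53. For comparison, 102 other genes had at least 2 probe sets above background on every wild type array. In that contrast their probe sets differed by a median of 0.17 log2 units, and 87.3% of them by less than those of DME. Of these genes 98 had only 2 probe sets, which narrows their range, and of the 4 with at least 3 probe sets 2 had a range below that of DME.

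Over the 9 arrays, log2 intensity of DME 250834_at and DME 250836_at had a Pearson correlation of 0.952. DME 250835_at correlated at 0.705 and 0.689 with these 2 and at 0.971 with CHR23. CHR23 correlated at 0.640 with DME 250834_at and at 0.568 with DME 250836_at. These values describe 9 arrays that share genotype and array quality. The arrays on which DME 250835_at and CHR23 were low were those with bright spike-in controls, with correlations of −0.921 and −0.855 to the log2 spike-in mean, against −0.644 for DME 250834_at and −0.701 for DME 250836_at. The log2 actin 3′ to 5′ ratio correlated at −0.763 with DME 250835_at and −0.785 with CHR23, against −0.329 with DME 250834_at and −0.325 with DME 250836_at. That ratio, from the first actin pair, was highest on double mutant replicate 1. The second actin pair, which did not follow genotype, and the GAPDH and ubiquitin ratios were not set against the members. The median log2 intensity of the array correlated at 0.856 to 0.932 with all 4. The part of these array differences in the results was not tested.

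**Figure D2:**
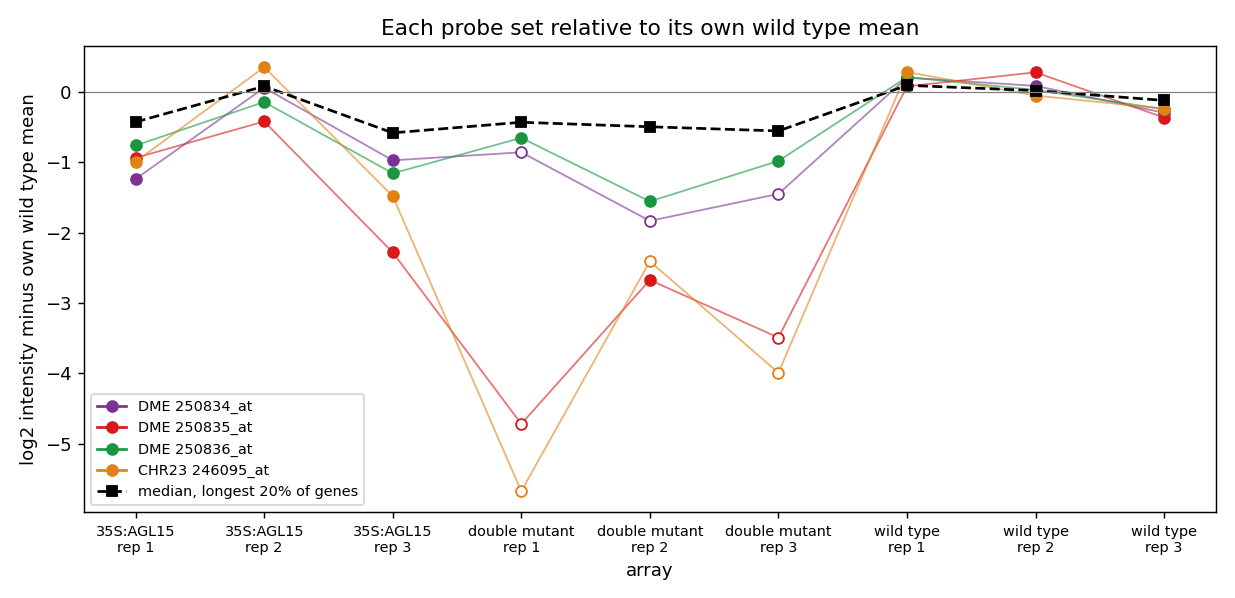
Log2 intensity of each DME probe set and of CHR23 minus its own mean in wild type, for each array of 35S:AGL15, the double mutant and wild type; open points are below background, and the dashed line is the median deviation of the longest 20% of genes. DME 250835_at and CHR23 lie lowest on the double mutant arrays and on 35S:AGL15 replicate 3, while 35S:AGL15 replicate 2 lies near wild type.

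DME and CHR23 are both long genes. DME spans 9422 bases, longer than 99.6% of the 13217 measured nuclear genes of known length, and CHR23 spans 4950 bases, longer than 94.4%. The median length was 2111 bases. These genes were sorted by length into 5 classes of 20% each, and both members lie in the longest, which runs from 3322 to 26499 bases. In that class the median log2 difference from wild type was −0.31 in 35S:AGL15 and −0.48 in double mutant cultures. In the shortest class, up to 1241 bases, the medians were 0.03 in 35S:AGL15 and 0.15 in double mutant cultures. The longest class was thus 0.34 lower than the shortest in 35S:AGL15. For double mutant cultures the longest minus the shortest was −0.62. The share of genes called lower in the double mutant was 24.6% in the longest and 4.08% in the shortest class.

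In the contrast of 35S:AGL15 with wild type, which did not choose the members, 5.90% of the 2643 genes in the longest class had a lower log2 difference than DME 250835_at, 20.2% than DME 250834_at, 21.4% than DME 250836_at and 20.6% than CHR23. From array to array the median deviation of the longest class from its level in wild type was −0.42, 0.08 and −0.58 in 35S:AGL15 replicates 1 to 3, −0.43, −0.49 and −0.55 in the double mutant and 0.10, 0.02 and −0.12 in wild type. The log2 intensity of DME 250834_at and DME 250836_at followed it with correlations of 0.920 and 0.914, DME 250835_at with 0.791 and CHR23 with 0.720 (9 arrays). The part of gene length in the members' differences was not tested.

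**Figure D3:**
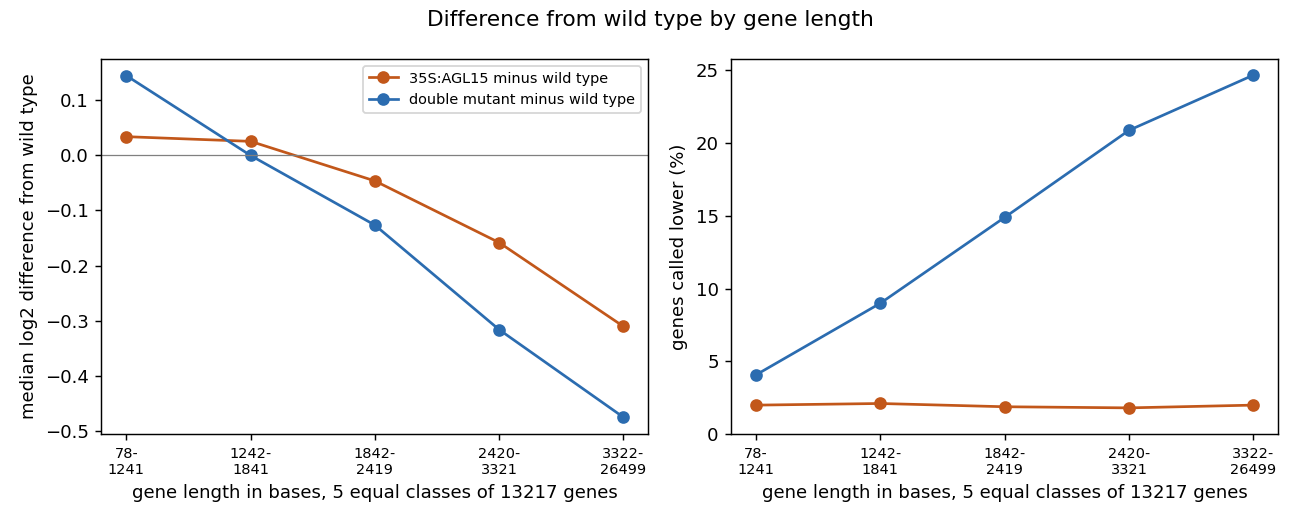
Median log2 difference from wild type (left) and percentage of genes called lower (right) in 5 equal classes of 13217 genes by length in bases, for 35S:AGL15 and the double mutant. In the double mutant the share called lower is 4.08% in the shortest and 24.6% in the longest class, which holds DME and CHR23.

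With the arrays of brighter spike-in controls as a term in the fit, an alternative chosen after seeing the data, the difference of the double mutant from wild type was −2.02 for DME 250835_at and −2.86 for CHR23. Under the same term it was −0.995 for DME 250834_at and −0.36 for DME 250836_at, and the longest class of genes was 0.11 higher than the shortest. That term rests on 35S:AGL15 replicate 3, the only array with bright controls outside the double mutant. With the term in the fit, limma called 6 of the 22746 probe sets in that contrast.

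Around DME, the pathway that completes DNA demethylation was measured only in part. Of 12 listed genes for the DEMETER family, base excision and its targeting factors, 2 had a probe set in this annotation, and none of 18 genes for DNA methylation and none of 4 known DME target genes had any. ROS1, MET1 and the imprinted genes MEA, FIS2 and FWA are therefore not analysed here. ZDP, a DNA 3′ phosphatase that trims the gap left by the glycosylase, fell 1.91-fold in the double mutant (435 ± 143 against 805 ± 101 in wild type, SD, n = 3, log2 difference −0.93, adjusted p = 0.0366 by limma). Its level in 35S:AGL15 was 773 ± 96.4 (log2 difference −0.06, adjusted p = 0.920). APE1L, an AP endonuclease of the same repair step, was at 0.49 in 35S:AGL15 (adjusted p = 0.305) and at −0.05 in double mutant cultures (adjusted p = 0.901).

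Among the relatives and partners of CHR23, 8 of 17 listed SWI/SNF genes were measured, and 3 fell and none rose in the double mutant, where 14.7% of all genes and 24.6% of those in the longest class were called lower. The median log2 difference of the 8 was −0.67. BRD13, a bromodomain subunit, fell 2.83-fold by its brighter probe set (142 ± 39.4 against 403 ± 102 in wild type, adjusted p = 0.0289). Its other probe set was below background in the double mutant and did not pass (adjusted p = 0.119). The bromodomain gene BRD2 fell 2.04-fold (adjusted p = 0.0277) and SWI3A, which encodes a scaffold subunit, 1.73-fold (adjusted p = 0.0320). The core subunit gene BSH was at 0.01, SWP73A at 0.09 and SWP73B at 0.23, and SWI3D and BRD1 at −0.58 and −0.76, none of them past the threshold in the double mutant. The ATPase genes CHR12, BRM and SYD were not analysed here.

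Of 12 other remodeller genes of the Snf2 type 4 were measured, all in the longest class by length, and 3 of them fell in the double mutant, against the same 14.7% of all genes and 24.6% of the longest class. CHR24 fell 4.99-fold (45.1 ± 6.60 against 226 ± 41.2 in wild type, SD, n = 3, adjusted p = 0.00711) and CHR17, an ISWI-type ATPase, 3.93-fold (299 ± 57.9 against 1163 ± 82.7, adjusted p = 0.00646). INO80, the ATPase of the complex of that name, fell 4.34-fold (118 ± 36.4 against 499 ± 68.6, adjusted p = 0.0200). CHR19 was at −0.35 (adjusted p = 0.235). In 35S:AGL15 the same genes had log2 differences of −0.74 for CHR24, −0.55 for CHR17, −0.93 for INO80 and −0.20 for CHR19, none past the threshold (adjusted p = 0.365 to 0.600). The double mutant values of CHR17 and CHR24 stayed past the threshold in 18 of 19 alternatives each, and those of INO80 in 13, BRD13 in 12, BRD2 in 11, and SWI3A and ZDP in 8 each. All 7 genes kept their direction in all 19. Of these alternatives, the dim filter, fit on 2 groups, replicate block and runs without a 35S:AGL15 array cannot change a double mutant difference.

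In the cell division list, where 2 of 8 genes were measured, the Aurora kinase genes AUR1 and AUR2 had double mutant log2 differences of −0.54 (adjusted p = 0.0917) and −0.20 (adjusted p = 0.577). In 35S:AGL15 they were at 0.35 (adjusted p = 0.396) and 0.46 (adjusted p = 0.345). Neither passed the threshold in either contrast, so no direction was shown for them.

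Counted together, the 6 lists held 16 measured genes, of which 7 (43.8%) were called lower and 0 higher in the double mutant, and 13 had a negative difference. Over all 13286 measured genes 14.7% were called lower and 3.54% higher, and the median log2 difference was −0.67 for the 16 genes and −0.15 for all. Of the 16 genes, 10 belonged to the longest class by length, with 6 called lower, and 6 to the shorter classes, with 1 called lower. In 35S:AGL15, 0 of the 16 were called by limma, against 1.96% lower and 1.26% higher over all genes, and 1 had an unadjusted p under 0.05. The count of 7 depended on scaling and on single arrays. It was 3 under quantile normalization, 3 under median centring and 0 with the term for bright spike-in controls. In the other direction, it was 10 under scaling on the spike-in controls, 8 with the dimmest 40% left out and 8 with an offset of 32. With that filter 26.5% of the probe sets kept were called lower, and with that offset 19.1% of all. It was 3 and 2 without double mutant replicates 2 and 3, and 2, 2 and 4 without wild type replicates 1, 2 and 3. The share of all probe sets called lower also fell without these arrays, from 15.0% with all arrays. It was 11.8% and 8.46% without those double mutant arrays, and 8.53%, 6.86% and 8.89% without those wild type arrays. Over all probe sets, the share called lower and higher in the double mutant was 9.24% and 7.18% under quantile normalization, 6.93% and 17.9% under median centring and 32.4% and 0.317% under scaling on the spike-in controls.

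**Figure D4:**
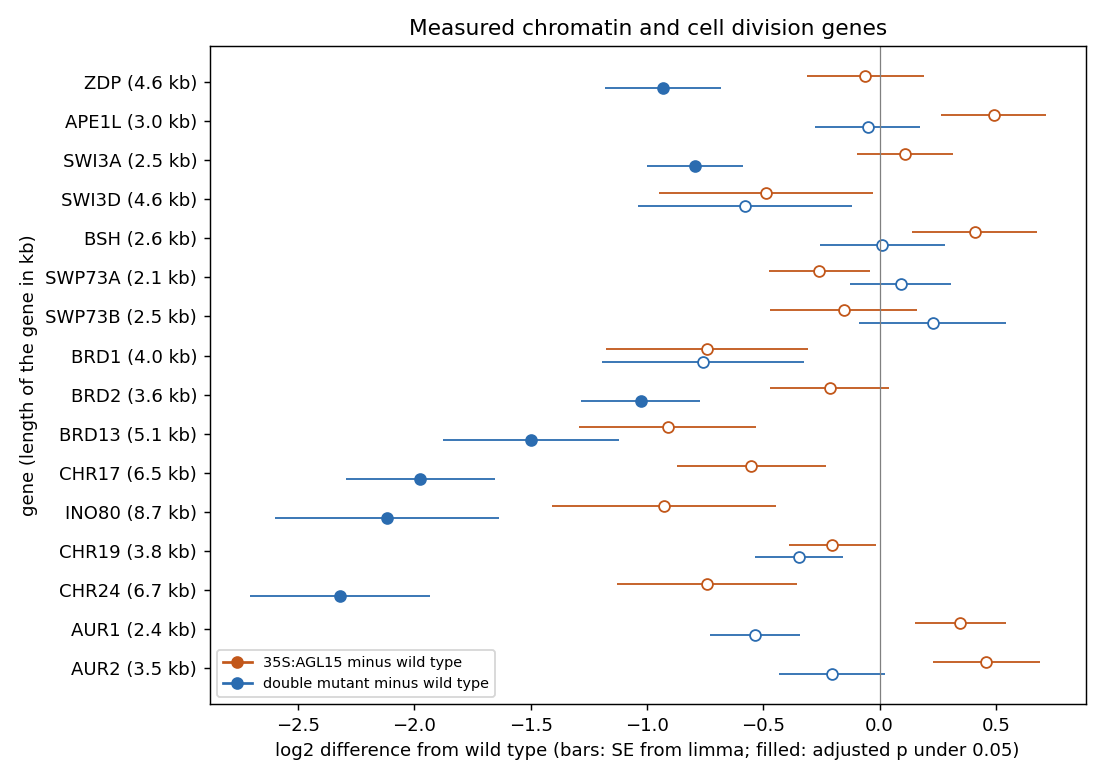
Log2 difference of 35S:AGL15 and of the double mutant from wild type for the 16 measured genes of the demethylation, SWI/SNF, other remodeller and cell division lists, with the SE from limma as bars and gene length in kb beside each name; filled points had an adjusted p under 0.05. The 7 filled points all belong to the double mutant and lie below 0, with CHR24, INO80 and CHR17 furthest.

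The probe sets most like each member over the 9 arrays were sought among those annotated to 1 gene and above background on at least 6 arrays, by Pearson correlation of log2 intensity. For DME 250834_at they were SEC5A (0.995), AT3G51150 (0.991), AT5G11240 (0.985), BRD13 (0.983) and PKDM7D (0.970). BRD13 is the bromodomain gene described above, SEC5A encodes a subunit of the exocyst, and PKDM7D a histone demethylase of the jumonji type. For DME 250836_at they were AT5G53440 (0.988), AT5G67090 (0.983), AT5G22760 (0.978), NRPC1 (0.977), the largest subunit of RNA polymerase III, and AT5G04810 (0.971).

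For DME 250835_at the most alike were AT4G17150 (0.995), AT3G56720 (0.994), AT5G51840 (0.992), AT5G54910 (0.992) and AT4G31460 (0.991). For CHR23 they were AT5G08420 (0.992), RH39 (0.991), AT3G46450 (0.990), UBC19 (0.988) and AT5G37380 (0.988). RH39 encodes a DEAD-box RNA helicase of the chloroplast and UBC19 a ubiquitin-conjugating enzyme. No gene stood on more than 1 of these 4 lists. Many other probe sets also had high correlations. Of the probe sets compared, 786 of 9793 exceeded 0.9 with DME 250835_at and 590 of 9795 with CHR23, against 197 and 208 of 9793 with DME 250834_at and DME 250836_at.

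The labelled tissue was checked on markers. Of 7 shoot meristem markers 2 were measured, and CLV3 was below background on all 9 arrays while LAS was above it on all. Their sum was 63.1 to 90.6 in 35S:AGL15, 107 to 122 in the double mutant and 98.0 to 192 in wild type. BBM, an embryo regulator, averaged 503 ± 145 in 35S:AGL15, 506 ± 60.4 in the double mutant and 485 ± 84.2 in wild type (SD, n = 3). The seed storage gene PAP85 rose in 35S:AGL15 (243 ± 138 against 50.7 ± 15.2 in wild type, adjusted p = 0.0382 by limma). None of the 7 measured root, leaf and stomatal markers was called in either genotype by limma. The summed intensity of the 2 leaf photosynthesis markers was 2313 to 3368 in 35S:AGL15, 3991 to 4692 in the double mutant and 3420 to 4773 in wild type, and that of the 2 root markers was 248 to 341 in 35S:AGL15, 224 to 304 in the double mutant and 151 to 246 in wild type. The 3 stomatal markers summed to 33.6 to 56.6 in 35S:AGL15, 25.7 to 57.8 in the double mutant and 60.7 to 71.5 in wild type, with MUTE below background on all 9 arrays. SPCH was above background only on 35S:AGL15 replicate 2, and FAMA was below it on double mutant replicates 1 and 3. The part of tissue makeup in the differences of DME and CHR23 was not tested.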

How the data were processed

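The authors deposited 1 linear array intensity per probe set for each of 9 Affymetrix arrays. The trimmed mean without the top and bottom 2% was 500.04 to 500.06 on every array, whereas how probes were summarised and background corrected is not stated. The log2 of each intensity was taken without an offset, 64 control probe sets were left out, and group means were fitted to 22746 probe sets on all 9 arrays with limma 3.58.1 in R 4.3.3 (two-sided contrasts, Benjamini-Hochberg adjustment, threshold 0.05). "Fell" and "called" refer to that threshold, except for DME and CHR23 in the double mutant, which are described without a test. The number of arrays limits the precision. Where every array of a group was below background, a fold of means is a bound against that level at the deposited scaling only.

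By the annotation, 13513 probe sets belong to 1 gene, 503 to several genes and 8730 are unnamed. List genes were matched by locus code, and the brightest probe set stood for a gene. The members, lists and alternatives were chosen with earlier results of these data known. The rule for naming took every DME and CHR23 probe set, measured list genes, and the 5 most correlated genes per member. The arrays are labelled biological replicates. Of 9 pairs with the same replicate number in different genotypes, 0 had deviations correlated above 0.1, so the numbers pair nothing. The fit was tested on simulated data.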

Additional observations from a re-analysis of the deposited data

How the results depend on the processing

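Alternatives were 3 scalings, a filter on the dimmest 40%, a fit on 2 groups, a replicate block, an offset of 32, leaving out each array, and 3 chosen after seeing the data (values raised to background, a term for bright spike-in controls, and 35S:AGL15 replicate 3 left out with double mutant replicate 1). In 35S:AGL15 against wild type no member passed the threshold under any, and all differences stayed negative. The filter, the fit on 2 groups, the replicate block and leaving out a double mutant array cannot change those differences. The filter removed every member but DME 250836_at. The replicate numbers pair nothing (1 of 9 arrays correlated best with its own number). With the replicate block the member differences did not move, and adjusted p in 35S:AGL15 was 0.290 to 0.613 by limma. With that block 5 list genes were called lower in the double mutant, as were 12.3% of all probe sets. Values below background give the fitted differences no fixed size.

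For the double mutant against wild type, the offset gave −1.69 for CHR23, −0.75 for DME 250834_at and −2.26 for DME 250835_at, values raised to background gave −1.79 for CHR23 and −2.71 for DME 250835_at, and the spike-in term gave −2.02 for DME 250835_at and −0.36 for DME 250836_at. Spike-in scaling gave −2.18, −4.43 and −1.86 for DME 250834_at, 250835_at and 250836_at, median centring −0.86 and −0.54 for DME 250834_at and 250836_at, and quantile normalization −0.66 for DME 250836_at. These 3 scalings put the median of all probe sets at −0.96, 0.36 and 0.06 in place of −0.16. For the double mutant against 35S:AGL15, the offset gave −1.23 for CHR23 and −1.32 for DME 250835_at, values raised to background −1.08 for CHR23, the spike-in term −1.35 for DME 250835_at and 0.094 for DME 250836_at, a turn of direction, and spike-in scaling −0.94 for DME 250836_at. The cause was not tested. All 4 differences of the double mutant from wild type stayed negative under every alternative that gave a value. The filter, the fit on 2 groups, the replicate block and leaving out a 35S:AGL15 array cannot change these differences. Their sign is also that of the contrast that chose the members.

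Leaving out single arrays, 35S:AGL15 minus wild type ran from −1.24 to −0.32 for CHR23, −1.10 to −0.45 for DME 250834_at, −1.61 to −0.68 for DME 250835_at and −0.96 to −0.45 for DME 250836_at. Double mutant minus wild type ran from −4.84 to −3.20, −1.64 to −1.15, −4.11 to −3.08 and −1.27 to −0.82 in that order, and double mutant minus 35S:AGL15 from −4.13 to −2.49, −0.93 to −0.28, −2.95 to −1.87 and −0.61 to −0.10. List genes called lower ran from 2 to 7 in the double mutant and from 0 to 2 in 35S:AGL15 (2 without its replicate 2), with 0 higher in either. In the double mutant, list genes called lower were 3 under quantile normalization, 3 under median centring and 0 with the spike-in term. They were 10 under spike-in scaling, 8 with the filter and 8 with the offset. The gap between DME 250835_at and 250836_at (−2.57) was −1.32 with the offset and −3.29 to −1.82 without single arrays. The longest minus the shortest genes (−0.62) gave −0.35 with the offset, −0.92 with values raised to background, 0.11 with the spike-in term, and −0.69 to −0.57 without single arrays.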
